A study of Mus musculus with 6 samples.

Results

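The 3 sham samples of an optic nerve crush study were described here on their own, as a baseline of the whole adult mouse retina. They were taken by their sample labels, and they are 3 of the 6 samples of the series. Each sham sample was a pool of 6 retinas from C57BL/6 mice at 12 weeks of age, so the group stands for 18 retinas. The mice were wild-type males by the methods of the study, and in sham surgery the optic nerve was exposed and not crushed, 2 days before the retinas were taken. RNA was sequenced from whole retinas, and the values are exon reads per gene, reads on whole genes with their introns, and RPKM (exon reads scaled to the length of a gene's exons and to the sum of reads on genes in the pool). The pools are named sham replicates 1, 2 and 3, every error is the SD over these 3 pools, and with 1 group no test between groups was made. The spread is therefore between pools and not between single mice.

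The retina is built in layers. Rods and cones catch light in stacked outer segment membranes and pass the signal to bipolar cells, which drive the retinal ganglion cells (RGCs) whose axons form the optic nerve. Horizontal and amacrine cells shape the signal sideways, and Müller glia span the whole tissue and recycle its glutamate and water. Rods are by far the most common cell of the mouse retina, so the RNA of a whole retina is known to be rich in rod genes. In rods, light sets off the G protein transducin, transducin relieves the phosphodiesterase PDE6 of its inhibitory subunit, and the fall in cGMP closes a cation channel.

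Exon reads numbered 17444025, 18349331 and 17343945 in replicates 1, 2 and 3, and reads on genes numbered 22989819, 23955947 and 24475929. An intact read pair counts as 1. At these depths, 0 reads on a gene allow a level of at most 0.172, 0.163 and 0.173 CPM (3 counts, scaled to the exon reads of the pool), for counting error only. Uniquely mapped reads made up 94.8%, 94.8% and 94.9% of the exon reads, and 42.3%, 42.6% and 42.0% of the exon reads crossed an exon junction. A mean RPKM above 0.3, the threshold of the study, was found for 13333 of the 35485 gene entries, and 12785 entries were above it in every pool. The single pools had 13348, 13335 and 13262 entries above 0.3. Genes of high level were few, with 5346 entries above a mean RPKM of 10, 369 above 100 and 17 above 1000. The labelled tissue carried its defining markers, with the rod genes Sag and Gnat1, the Müller glia gene Glul and the RGC gene Rbpms all present in every pool at the values given below.

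A small number of genes took much of the exon reads. No gene entry lies on the mitochondrial chromosome, so genes of that chromosome are not among the ranks given here. Whether reads of their transcripts were mapped to nuclear entries was not tested. The 10 leading genes of each pool held 10.1%, 10.1% and 11.2% of its exon reads (10.5% ± 0.660, SD, n = 3), the 100 leading genes held 23.0% ± 0.673 and the 1000 leading genes held 51.2% ± 0.578. It took 966, 943 and 905 genes to reach 50% of the exon reads. The 20 genes with the highest mean RPKM were the same 20 in all 3 pools, and 12 of them belong to the photoreceptor lists used below.

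**Figure D1:**
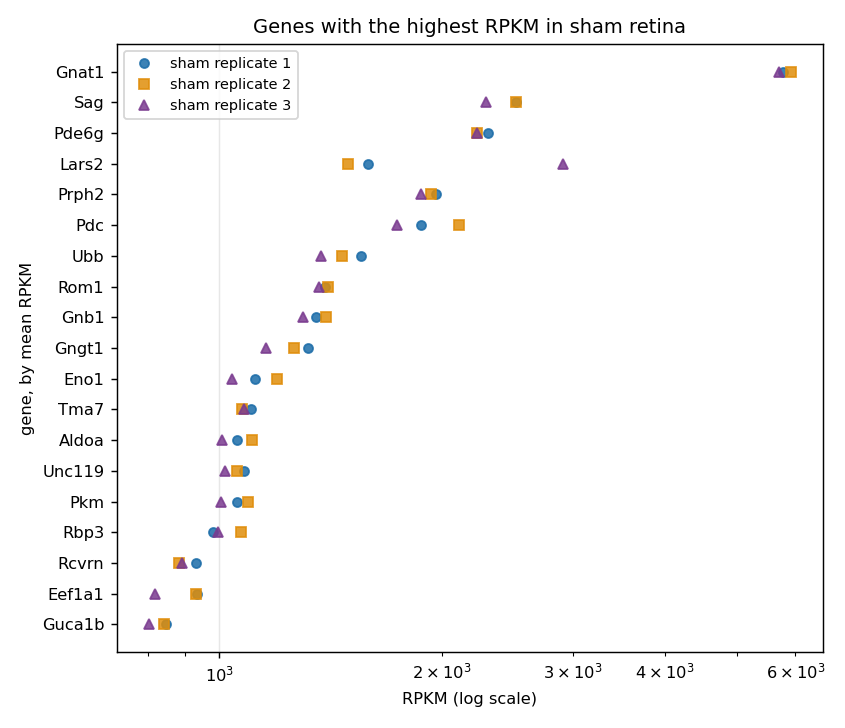
RPKM (log scale) of 19 of the 20 genes with the highest mean RPKM over the sham pools, 1 point per pool. The points of most genes lie close together, and Lars2 in replicate 3, at 2908, stands apart from 1586 and 1493 in replicates 1 and 2.

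Genes of the rod cascade were among the highest. Gnat1, the α subunit of rod transducin, at bases 107674474 to 107679592 of chromosome 9 in GRCm38, had RPKM values of 5776, 5911 and 5706 (5798 ± 104, SD, n = 3), and it alone took 1.72% ± 0.0509 of the exon reads. Sag, on chromosome 1 from 87803680 to 87845157, encodes the rod arrestin that helps to end the light signal, and its RPKM was 2513, 2518 and 2294. Pde6g, the inhibitory γ subunit of rod PDE6, had an RPKM of 2309, 2231 and 2231. Gngt1, the γ subunit of rod transducin, followed at 1318, 1262 and 1157.

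The order among these rod genes was the same in all 3 pools. Intron reads enter the divisor of RPKM, and replicate 3 had the most of them, so that its RPKM values ran lower as a whole. The median RPKM of the expressed genes was 7.65, 7.54 and 6.86 in replicates 1, 2 and 3. In shares of exon reads, which do not depend on intron reads, the coefficient of variation between pools was 1.15% for Sag and 2.96% for Gnat1. In CPM after TMM normalization, a scaling that sets the typical gene equal between pools, it was 0.141% for Sag and 4.08% for Gnat1.

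Genes for the outer segment membrane and the Ca2+ feedback of photoreceptors came next. Prph2 and Rom1 encode the paired tetraspanins of the disc rim, and their RPKM was 1924 ± 45.4 and 1384 ± 19.8 (SD, n = 3). Unc119, which carries lipid-modified proteins such as transducin to the outer segment, had 1052 ± 30.8. Rbp3, the retinoid carrier between photoreceptors and pigment epithelium, had an RPKM of 1016 ± 47.2, and with its long mRNA it took 0.721% ± 0.0332 of the exon reads, rank 4 of all genes. Recoverin (Rcvrn) and the guanylate cyclase activator Guca1b are Ca2+ sensors of the recovery from light, at 901 ± 25.4 and 831 ± 23.3. Pdc, which encodes phosducin, a binding partner of transducin βγ, had an RPKM of 1904 ± 186, but only 37.3% of its exon reads were uniquely mapped, so its level is less certain.

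The other 8 of the 20 highest genes are not in a photoreceptor list. Gnb1 encodes the β subunit shared by rod transducin and other G proteins, at an RPKM of 1348 ± 48.8. Eno1, Aldoa and Pkm are enzymes of glycolysis, the pathway on which photoreceptors are known to lean heavily, at 1118 ± 78.1, 1058 ± 49.1 and 1051 ± 44.1. Ubb encodes ubiquitin, Eef1a1 a translation elongation factor and Tma7 a small protein named for its association with translation machinery, at 1463 ± 90.2, 894 ± 65.5 and 1086 ± 15.6. Of the exon reads of Ubb, 43.3% were uniquely mapped, and of those of Eno1, 43.6%.

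The last of these, Lars2, on chromosome 9 from 123366940 to 123462664, encodes the mitochondrial leucyl-tRNA synthetase and behaved unlike the rest. Its exon reads numbered 141487, 138760 and 276212 in replicates 1, 2 and 3, and its RPKM 1586, 1493 and 2908. Its rank by RPKM was 7 in replicates 1 and 2 and 3 in replicate 3. Replicate 3 alone was high, and the difference between the highest and the lowest pool, 2.13-fold after TMM normalization, was the only one above 1.5-fold among the 158 genes with at least 10000 exon reads in the mean. Without Lars2 the 10 leading genes held 9.82% ± 0.255 of the exon reads, against an SD of 0.660 with it.

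The promoters of rod genes are shown here because 2 transcription factors of rods with short and well-known DNA sites, CRX and NRL, are themselves abundant in these pools. The homeodomain factor CRX binds TAATCC, and the leucine zipper factor NRL binds sites that contain TGCTGA. Crx had an RPKM of 303, 306 and 282, and Nrl of 728, 727 and 707. Of the 14 genes of the rod list, 9 have a promoter of 300 bases (250 before and 50 after the start) in the RefSeq table of GRCm38.p6. The sequences below belong to Sag and Gngt1, the 2 of highest RPKM among these 9, and to Cngb1, which was added after the matches were seen because it holds 2. Capitals mark TAATCC on either strand and, in Sag alone, TGCTGA. They are given 5′ to 3′ on the strand of the gene, at chr1:87803430-87803729 on the plus strand for Sag, chr6:3993758-3994057 on the plus strand for Gngt1 and chr8:95306536-95306835 on the minus strand for Cngb1.
Sag: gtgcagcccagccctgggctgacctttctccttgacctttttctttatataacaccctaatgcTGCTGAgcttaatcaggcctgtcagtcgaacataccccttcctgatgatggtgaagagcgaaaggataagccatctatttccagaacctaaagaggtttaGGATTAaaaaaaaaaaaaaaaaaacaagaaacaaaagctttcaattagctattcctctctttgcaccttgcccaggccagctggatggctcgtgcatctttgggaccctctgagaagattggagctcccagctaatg
Gngt1: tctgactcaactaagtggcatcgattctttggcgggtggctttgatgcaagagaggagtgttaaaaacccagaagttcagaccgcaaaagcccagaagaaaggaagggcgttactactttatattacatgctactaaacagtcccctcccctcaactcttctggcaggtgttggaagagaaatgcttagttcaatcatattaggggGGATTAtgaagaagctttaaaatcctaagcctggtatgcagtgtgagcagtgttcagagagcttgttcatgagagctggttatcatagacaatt
Cngb1: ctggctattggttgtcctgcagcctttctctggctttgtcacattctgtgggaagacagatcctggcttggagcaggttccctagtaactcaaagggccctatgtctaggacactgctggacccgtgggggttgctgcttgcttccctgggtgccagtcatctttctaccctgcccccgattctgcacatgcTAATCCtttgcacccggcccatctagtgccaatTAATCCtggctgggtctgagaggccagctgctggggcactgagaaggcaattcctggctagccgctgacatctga

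The match to TAATCC begins 87 bases before the start in Sag, 44 before it in Gngt1, and 58 and 25 before it in Cngb1. TAATCC on either strand was found in the promoters of 4 of the 9 rod genes (44.4%) and of 9 of 20 genes shared by rods and cones (45.0%), and in those of 8.14% of all 27025 genes with a promoter in the table. It was found for 2 of 15 bipolar genes, 1 of 14 amacrine genes, 1 of 7 Müller glia genes, 1 of 8 cone genes and 0 of 8 RGC genes. TGCTGA on either strand was found for 2 of the 9 rod genes, 6 of 20 shared genes, 1 of 8 cone genes, 5 of 15 bipolar genes, 5 of 14 amacrine genes, 2 of 7 Müller glia genes and 4 of 8 RGC genes, against 21.7% of all genes. A match describes letters in a window of 300 bases and is not evidence of binding, and with lists this small no test was made.

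Marker lists of 12 retinal cell classes, 151 genes in all, were summed to give each list's share of the exon reads. Together they held 14.0% ± 0.192 (SD, n = 3) of the exon reads, and the 3 photoreceptor lists made up 93.9% ± 0.183 of that. A list's share grows with the number and length of its genes, and in whole tissue more cells of a class and more RNA per cell cannot be told apart, so these are shares of RNA from listed genes and not shares of cells. Classes are therefore also compared by the RPKM of their genes.

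**Figure D2:**
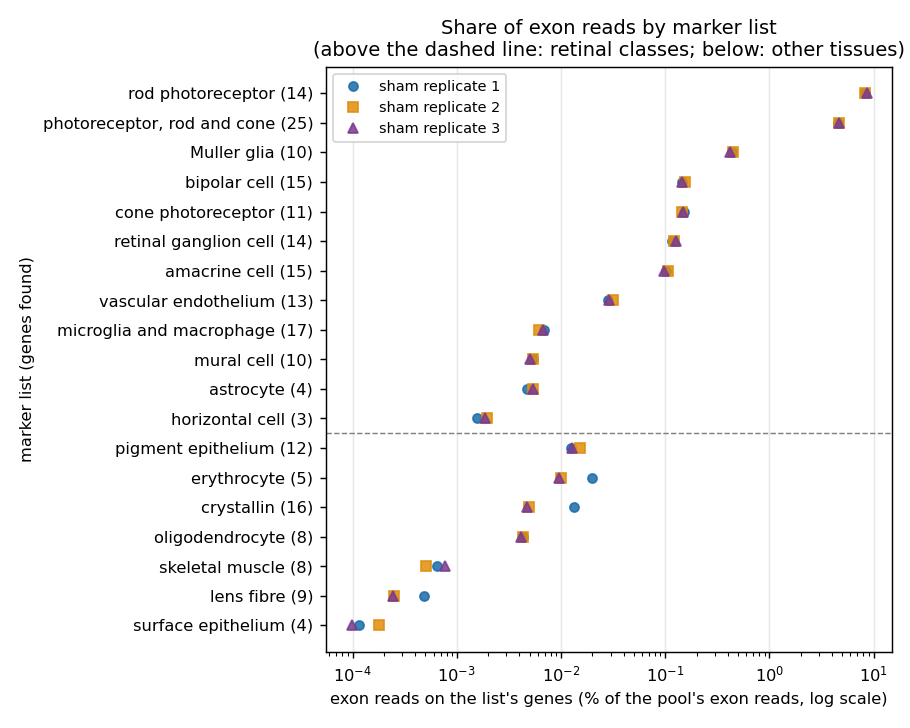
Share of exon reads (percent, log scale) on the genes of each marker list in the 3 sham pools, with the number of genes found. The rod list is highest at 8.28 to 8.59% in all pools, and among the lists of other tissues the crystallin and erythrocyte lists are higher in replicate 1 than in replicates 2 and 3.

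The rod list of 14 genes held 8.29%, 8.28% and 8.59% of the exon reads (8.39% ± 0.179, SD, n = 3). In replicate 1 the 95% Wilson interval was 8.27 to 8.30%, so the spread between pools was wider than counting error. The median RPKM of the list was 686, and its lowest member was Esrrb, an orphan nuclear receptor, at 75.2 ± 7.34. Pde6a, a catalytic subunit of PDE6, had an RPKM of 714 ± 33.4 and rank 8 of all genes by share of exon reads, at 0.406% ± 0.00439. All 14 rod genes were thus far above the threshold for expression in every pool. The list of 25 genes used by rods and cones alike held 4.63% ± 0.0397, ranging from Prph2 down to the guanylate cyclase Gucy2f at an RPKM of 46.5 ± 3.18.

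The cone list of 11 genes held 0.150%, 0.144% and 0.147% of the exon reads, and the ratio of the rod list to it was 55.1, 57.6 and 58.4. By summed RPKM, which takes out the length of the genes, the cone list held 0.273% ± 0.0105 and the ratio was 31.1, 33.8 and 33.5. Pde6h, the inhibitory subunit of cone PDE6, had the highest RPKM of the list, at 207, 172 and 182. The short-wavelength opsin Opn1sw had 121, 124 and 125, and the middle-wavelength opsin Opn1mw 102, 107 and 80.8. The ratio of Opn1sw to Opn1mw was 1.18, 1.16 and 1.54, so that Opn1sw was the higher of the pair in every pool, and most in replicate 3. Cone arrestin (Arr3) had 91.9 ± 2.89, cone transducin α (Gnat2) 91.4 ± 4.68, and the lowest member, the channel subunit Cnga3, 3.12 ± 0.441.

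Because rods and cones run the same cascade with their own copies of most parts, 7 pairs of rod gene and cone counterpart were compared by RPKM. The pairs were set after the values of the genes had been seen. In each of the 7 pairs the rod gene was higher in all 3 pools, with a median ratio of 32.7, 32.8 and 35.4 in replicates 1, 2 and 3, but the ratio was not the same for all parts. For transducin α, Gnat1 against Gnat2, the ratio was 63.5 ± 2.84 (SD, n = 3), and for transducin γ, Gngt1 against Gngt2, 16.3 ± 2.53. The α and γ subunits of 1 complex thus differed in their ratio by far more than the spread between pools.

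PDE6 and the channel showed the same unevenness. The catalytic subunits Pde6a and Pde6b together stood at 49.4 ± 4.34 times Pde6c, while the inhibitory subunit Pde6g stood at 12.1 ± 0.90 times Pde6h. Cnga1 was 92.3 ± 12.8 times Cnga3, and Cngb1 was 33.7 ± 1.55 times Cngb3. The arrestins, Sag against Arr3, had a ratio of 26.5 ± 0.791. The lowest ratio in each pool was that of the PDE6 inhibitory subunits, from 11.18 to 12.96, and the highest was that of the channel α subunits, from 84.8 to 107.

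**Figure D3:**
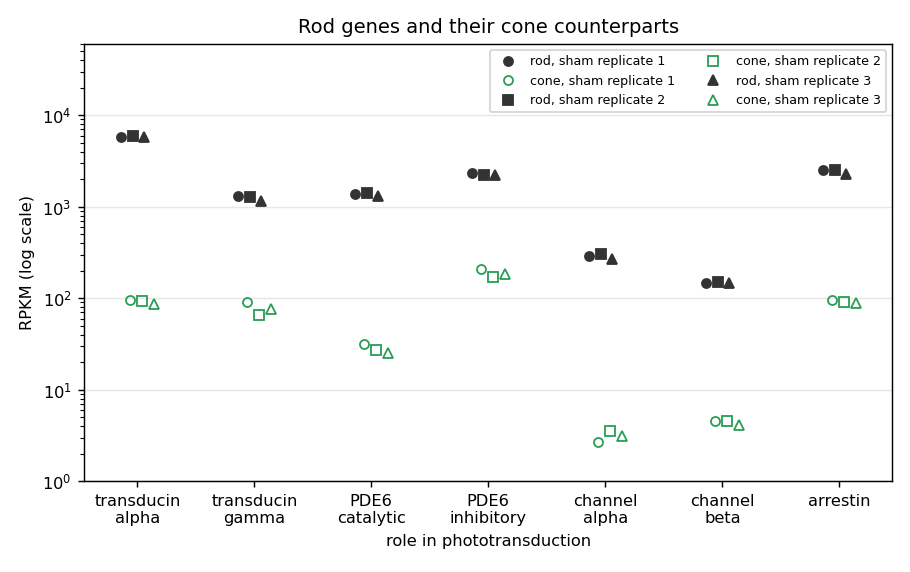
RPKM (log scale) of rod genes (filled) and their cone counterparts (open) for 7 roles in phototransduction, 1 point per pool. The gap is narrowest for the PDE6 inhibitory subunits (12.1-fold) and widest for the channel α subunits (92.3-fold).

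Müller glia followed the photoreceptors. Their list of 10 genes held 0.434%, 0.447% and 0.424% of the exon reads, and the rod list held 19.3 ± 0.892 times as much. Glul, glutamine synthetase, which turns glutamate taken up from synapses into glutamine, lies on chromosome 1 and had an RPKM of 567, 592 and 512, which made up 47.8% of the list by exon reads. Apoe, a lipid carrier that other glia also make, had 240 ± 8.49, and Dkk3, a secreted relative of the Dickkopf Wnt inhibitors, 156 ± 11.4. Rlbp1, the retinaldehyde-binding protein of Müller glia and pigment epithelium, had 125 ± 5.59, and Abca8a, a lipid transporter of the ABC family, 33.3 ± 3.08. The lowest was the transcription factor Sox9 at 2.45 ± 0.281. Glul, Apoe, Dkk3 and Rlbp1 stood in this order in every pool.

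The bipolar list of 15 genes held 0.145%, 0.155% and 0.146% of the exon reads. Gng13, the G protein γ subunit that works with the glutamate receptor of ON bipolar cells, had the highest RPKM at 119 ± 8.19, followed by Pcp2 at 104 ± 3.08. The calcium-binding proteins Scgn and Cabp5 had 42.1 ± 4.73 and 42.1 ± 3.36, and Prkca, the protein kinase C of rod bipolar cells, had 34.6 ± 3.74. Scgn and Cabp5 could not be ordered, since their difference was smaller than the spread between pools. The lowest was Nyx, which encodes nyctalopin of the ON bipolar synapse, at 4.08 ± 0.332.

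The amacrine list of 15 genes held 0.102%, 0.105% and 0.0983%. Gad1, which makes the inhibitory transmitter GABA, led at an RPKM of 74.9 ± 4.92. The glycine transporter Slc6a9 had 42.3 ± 3.97, the vesicular GABA and glycine transporter Slc32a1 25.2 ± 2.51, and the transcription factor Tfap2b 19.98 ± 1.37. C1ql2, a secreted C1q-like protein, had 15.6 ± 0.539. Slc18a3, the vesicular acetylcholine transporter, had 2, 1 and 0 exon reads, none of them uniquely mapped. Its entry lies within the span of Chat, so its level could not be read, and the part of this overlap was not tested. The cholinergic genes Chat and Slc5a7 of the same list had an RPKM of 3.86 ± 0.226 and 3.83 ± 0.207, and they were named after their values were seen.

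The RGC list of 14 genes held 0.117%, 0.122% and 0.128%, with the neurofilament light chain Nefl highest at an RPKM of 142 ± 4.90. The γ-synuclein gene Sncg had 115 ± 4.98, the surface glycoprotein Thy1 91.1 ± 2.52, and the neurofilament chains Nefm and Nefh 37.7 ± 1.54 and 19.1 ± 1.20. Rbpms, on chromosome 8 from 33782644 to 33929841, an RNA-binding protein that marks RGCs among retinal neurons, had 9.29, 10.5 and 10.4. The lowest was the POU factor Pou4f3, at 0.721, 1.46 and 1.60, on 19, 40 and 45 exon reads. The related POU factors Pou4f1 and Pou4f2 had a mean RPKM of 6.74 and 3.26, and these were named after their values were seen. Nefl, Sncg and Thy1 stood in this order in every pool. After TMM normalization, 13 of the 14 genes were above their own mean in replicate 3 and 1 in replicate 1, with a median log2 deviation of 0.09 in replicate 3 and -0.12 in replicate 1, where over all 13314 expressed genes with reads in every pool 6559 and 6616 were above their mean and the medians were near 0.

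The listed genes of horizontal cells and astrocytes, which are rare cells, had low levels. The 3 horizontal genes found, Lhx1, Onecut1 and Onecut2, are transcription factors with an RPKM of 1.43 ± 0.172, 1.0 ± 0.281 and 0.572 ± 0.0821. Septin 4 was listed as well, but the entry at its place carries a name that a spreadsheet turned into a date, so it was kept out of the list. That entry, which lies in Septin4 by its position in RefSeq, had 2471, 2478 and 2140 exon reads and an RPKM of 60.8 ± 6.48 (SD, n = 3), far above the 3 genes counted. With it the horizontal share of the exon reads was 0.0151% ± 0.000824 in place of 0.00180% ± 0.000197. The astrocyte list was led by Gfap, the intermediate filament of astrocytes, which stressed Müller glia also make, at 4.35, 6.06 and 4.42. S100b, a Ca2+-binding protein, had 3.83 ± 0.453, the growth factor receptor Pdgfra 1.73 ± 0.227, and the astrocyte transcription factor Pax2 only 13, 2 and 6 exon reads.

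Vessels and immune cells were seen at low levels. The endothelial list of 13 genes held 0.0297% ± 0.00151 of the exon reads, of which Kdr, the main receptor for vascular endothelial growth factor, made up 49.1%. The RPKM of Kdr was 19.9 ± 0.372, of the related receptor Flt1 8.90 ± 1.45, of the tight junction gene Cldn5 5.22 ± 0.480 and of the adhesion gene Esam 4.45 ± 0.185, while Ly6c1 had 4.05 ± 0.806 and the receptor Tie1 0.490 ± 0.0500. Retinal neurons are known to contain Kdr as well, so the list is not of vessels alone. The mural list of 10 genes held 0.00530% ± 0.000211, with the pericyte gene Rgs5 at 8.76 ± 1.43, the receptor Pdgfrb at 1.86 ± 0.247, the smooth muscle genes Tagln and Acta2 at 1.34 ± 0.307 and 0.820 ± 0.148, the channel subunit Abcc9 at 0.456 ± 0.141 and Cspg4 at 20, 2 and 11 exon reads.

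The microglia and macrophage list of 17 genes held 0.00683%, 0.00619% and 0.00677%. The lysosomal protease Ctss had an RPKM of 7.48 ± 0.617, the complement genes C1qb, C1qa and C1qc 4.74 ± 0.529, 4.56 ± 0.830 and 4.16 ± 0.637, and the growth factor receptor Csf1r 2.48 ± 0.329. The 3 complement subunits, which assemble into 1 protein, were at levels within the spread of each other. The receptor Gpr34 had 3, 0 and 0 reads. Of the 17 genes, 14 had a mean RPKM above 0.3.

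Genes of neighbouring tissues were looked for because they can come along in a dissection. The pigment epithelium list of 12 genes held 0.0125%, 0.0154% and 0.0128% of the exon reads, led by the thyroxine carrier Ttr at an RPKM of 34.2 ± 5.87 and followed by the opsin relative Rrh at 9.91 ± 0.897. Rpe65, the isomerase of the visual cycle, had 4.74, 8.34 and 3.26, highest in replicate 2, and Rdh5 had 5.06 ± 0.392. Of the pigment genes of the list, Dct, Tyrp1, Tyr and Mlana were highest in replicate 3 and Pmel in replicate 2, so the members did not share an order. These pigment genes were named after their values were seen. The myelin gene Mbp had 3.87 ± 0.446, Ermn had 0.415 ± 0.137 and Mog 0.197 ± 0.108, and 5 of the 8 genes of the oligodendrocyte list had a mean RPKM below 0.3. The muscle genes Mylpf and Ckm were at 1.76 ± 0.242 and 1.42 ± 0.0939, with Acta1 at 0.518 ± 0.248 and Actn3 at 0.181 ± 0.0780. Keratins of the ocular surface, Krt12, Krt5, Krt15 and Krt14, all had a mean RPKM below 0.3.

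Lens and blood genes differed between pools more than any retinal class. The 16 crystallins, structural proteins of the lens of which some are also made in retina, held 0.0134%, 0.00489% and 0.00477% of the exon reads. Crybb2 had 408, 38 and 58 exon reads, Cryaa 529, 86 and 147, and Cryba1 166, 15 and 34. Replicate 1 was the highest pool for each of the 12 crystallins with a mean RPKM above 0.3, and in 11 of these it had more than 2 times the TMM-normalized CPM of either other pool. Cryab, a small heat shock protein made in many tissues, was the exception, at 672, 640 and 479. Crygd, with an RPKM of 2.26, 0 and 0.515, passed the RPKM filter only through replicate 1, so its place in these counts is built in. Of the 11 crystallins above the filter with reads in every pool, 11 were above their own mean in replicate 1. Over all 13314 expressed genes with reads in every pool, 6616 were. The lens fibre list of 9 genes without crystallins held 0.000482%, 0.000251% and 0.000242%, and its defining channel gene Mip had 14, 3 and 14 reads, while Lgsn, Bfsp2 and Bfsp1 had 31, 23 and 8, then 15, 13 and 17, then 17, 4 and 2.

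The erythrocyte list was highest in replicate 1 as well. Its 5 genes found held 0.0197%, 0.00996% and 0.00957%, with Hba-a1 at an RPKM of 135, 65.9 and 55.5, Hba-a2 at 87.4, 43.3 and 41.1 and Hbb-b1 at 34.1, 19.9 and 18.5. Only 28.7%, 28.9% and 50.9% of the exon reads of these globins were uniquely mapped, so reads may be split between near-identical copies. Alas2, the haem synthesis enzyme of red cell precursors, had 1.54, 1.31 and 0.95. Without replicate 1 the crystallin share was 0.00483% ± 0.0000809 (n = 2) in place of 0.00769% ± 0.00496 (n = 3), and the erythrocyte share 0.00976% ± 0.000277 in place of 0.0131% ± 0.00572.

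The axon injury response list was also highest in replicate 1. Except for Gal, which was added here, its 10 genes were chosen by the study as genes that rise after crush. Phgdh, which the study places with them among its most upregulated genes, was left out here. Apart from Gal, the genes were chosen on the samples of this series, so their choice is not independent of these pools. The 10 genes held 0.00463%, 0.00219% and 0.00271% of the exon reads, and 0.00245% ± 0.000367 (n = 2) without replicate 1. Tnfrsf12a, the receptor of the cytokine TWEAK, had an RPKM of 8.20, 3.89 and 4.62, and Atf3, a stress transcription factor, 4.93, 2.22 and 2.85. Mmp12, a metalloprotease, had 90, 4 and 14 exon reads, Sprr1a, a growth cone protein, 24, 0 and 3, and Ecel1, a neuronal endopeptidase, 45, 18 and 16. In each of these genes replicate 1 was the highest pool.

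Replicate 1 was also the highest in 4 of the 5 remaining genes of that list, and for Gal it was replicate 2. The cell cycle inhibitor Cdkn1a had an RPKM of 1.63, 1.22 and 1.39, the glutathione-degrading enzyme Chac1 1.39, 1.20 and 1.22, the neuropeptide galanin (Gal) 0.498, 0.776 and 0.584, the galectin Lgals3 0.681, 0.297 and 0.378 and the transcription factor Sox11 0.448, 0.286 and 0.247. The highest pool exceeded the lowest by 2.29 times for Lgals3 and by 1.16 times for Chac1 after TMM normalization. Of the 9 genes of the list with an RPKM above 0.3 and reads in every pool, 8 were above their own mean in replicate 1. Over all 13314 expressed genes with reads in every pool, 6616 were. Mmp12, Ecel1 and Sox11 passed the RPKM filter only through replicate 1, so the count for the list is partly built in. The crystallin and erythrocyte lists were also highest in replicate 1. The share of the injury list was higher in replicate 3 than in replicate 2. The crystallin and erythrocyte shares were slightly lower there, but the Wilson intervals of replicates 2 and 3 overlapped for both lists. Without its leading gene, Cryab, the crystallin share was 0.00140% in replicate 2 and 0.00201% in replicate 3. Without Hba-a1 the erythrocyte share was 0.00514% and 0.00518%. The order of these pools thus does not set the lists apart. The part of the crystallin and erythrocyte lists in the level of the injury genes was not tested.

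**Figure D4:**
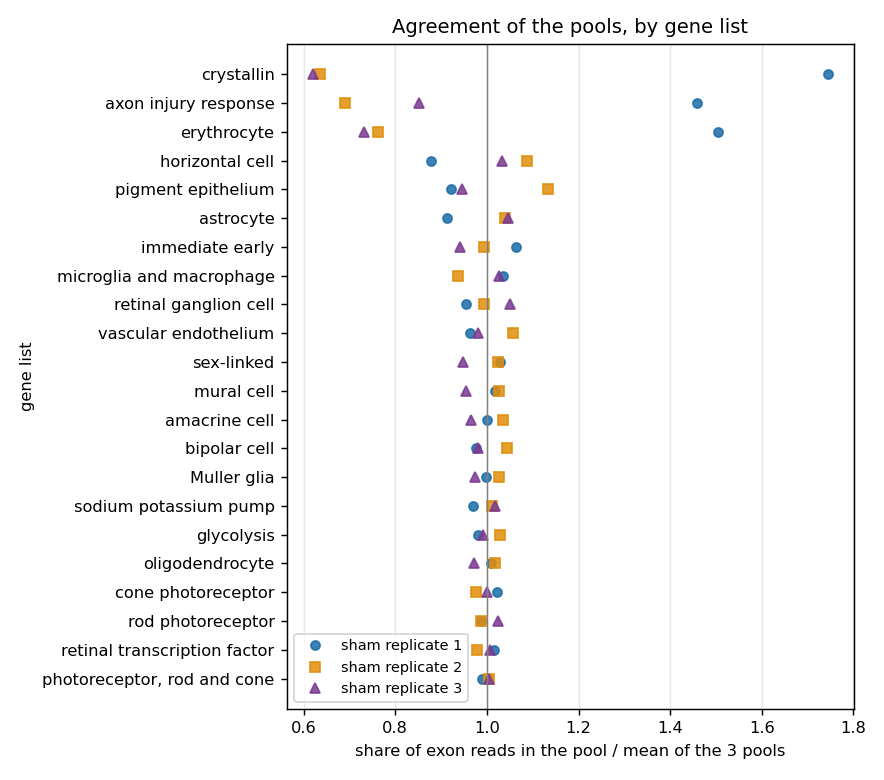
Share of exon reads of 22 gene lists in each pool, divided by the mean of the 3 pools, ordered by the ratio of the highest to the lowest pool. Replicate 1 stands apart for the crystallin, axon injury response and erythrocyte lists, while the photoreceptor lists of all pools lie near 1.

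All 3 pools carried Y-linked RNA, as the mice were males. Eif2s3y had an RPKM of 21.9, 27.0 and 24.1, Ddx3y 15.2, 14.1 and 12.2, Uty 6.72, 5.72 and 4.60 and Kdm5d 4.80, 5.23 and 4.34. For Xist, the RNA that silences an X chromosome in females, the files give no exon length, and 1, 5 and 6 reads were counted on the whole gene. No pool stood apart in this respect.

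Introns held 24.1%, 23.4% and 29.1% of the reads on genes (25.6% ± 3.12, SD, n = 3), highest in replicate 3. For the typical gene the share was lower. Over the 5025 genes with a mean of at least 1000 gene reads and an annotated exon length, the median intron share was 12.2%, 12.4% and 14.3%, and 56.0% of these genes had their highest share in replicate 3, against 21.7% in replicate 1 and 22.3% in replicate 2. A few gene entries took much of the rest. The 10 entries with the most intron reads held 38.4%, 35.4% and 42.0% of all intron reads, and without them the intron share was 16.4%, 16.5% and 19.3%.

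Esp38, an entry on chromosome 17 from 39249579 to 39955287 named for an exocrine gland peptide, had 801603, 708414 and 1193154 intron reads and no exon reads. Of all its reads, 0.313% were uniquely mapped. Reads that map to many places are counted there, and its span in RefSeq also holds a pseudogene of 18S ribosomal RNA, Rn18s-rs5. The second entry of Myo3a, a myosin, on chromosome 2 from 22542413 to 22618252, had 525274, 531414 and 510540 intron reads and no exon reads, and 99.9974% of its gene reads were unique. LOC100503946, on chromosome 1 from 24613971 to 24614651, had 169833, 166004 and 165599 reads and no annotated exon length, and RefSeq gives a pseudogene there.

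The 10 entries fell into those that were flat between pools and those that were high in replicate 3. Myo3a and LOC100503946 were flat, with 0.966 and 0.986 times the gene reads in replicate 3 as in the mean of the other 2 pools. The other 8 were more than 1.5 times higher in replicate 3. They were Esp38 (1.58 times), 2610528E23Rik (1.86), Arhgap21 (1.98), Cdk8 (1.72), Gphn (1.92), Zc3h7a (1.67), Il31ra (1.85) and Jarid2 (1.95). Lars2, whose reads lie on exons, was 1.97 times higher in the same pool. The exon reads of Arhgap21 were 2055, 2073 and 1956, and those of Cdk8 907, 936 and 854, so the excess in replicate 3 was counted on their introns. Only 0.783% of the gene reads of 2610528E23Rik and 22.3% of those of Arhgap21 were uniquely mapped, so most of these may come from other places. For Cdk8 99.99% were unique, and for Gphn, Zc3h7a, Il31ra and Jarid2 96.2%, 79.6%, 95.2% and 98.7%.

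**Figure D5:**
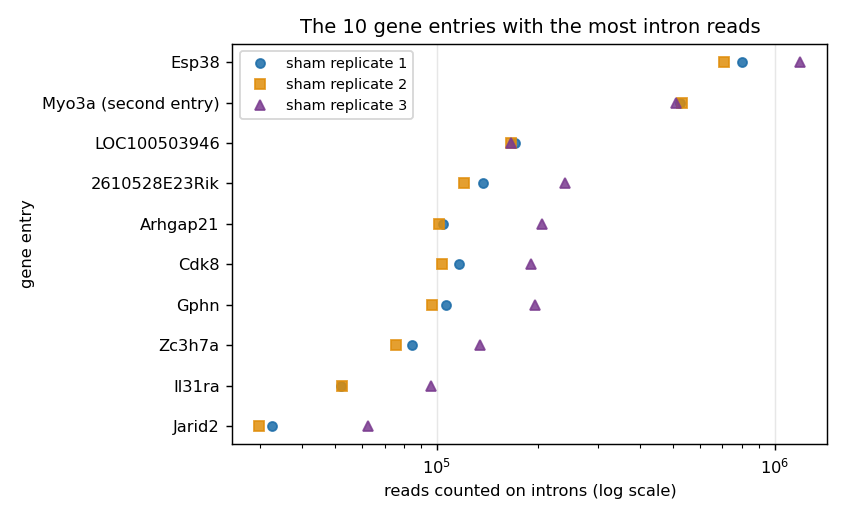
Reads counted on introns (log scale) of the 10 gene entries with the most of them, 1 point per sham pool. Replicate 3 lies to the right for 8 entries, and for Myo3a and LOC100503946 the pools coincide.

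Replicate 3 had 1555779 more intron reads than the mean of the other 2 pools, of which 60.2% lay on the 10 entries and 28.2% on Esp38 alone. Of the 5084 genes with a mean of at least 1000 gene reads, 65 were more than 1.5 times higher in replicate 3, and 58 of these 65 had most of their reads on introns, whereas 360 of the 5084 did. The rest of the difference was spread over many genes, as the median above shows.

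The intron share also differed between cell classes. It was 2.99%, 2.81% and 2.78% for the rod list, 2.52%, 2.58% and 2.84% for the RGC list and 1.93%, 2.15% and 2.32% for the Müller glia list. For the cone list it was 21.1%, 21.2% and 20.4%, and for the bipolar list 17.5%, 17.9% and 23.0%. Opn1mw and Arr3 had 36.1% and 31.6% of their reads on introns in the mean, whereas Opn1sw had 2.48% and Gnat1 0.200%. The members of a class thus varied widely, and a high share was not a property of all cone genes.

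At the high end, the 10 genes of highest intron share, among those with at least 1000 gene reads and an annotated exon length, had nearly all their reads on introns. Beside Esp38, Myo3a, Il31ra, 2610528E23Rik and Cdk8 these were Gm3952, Gm6976, Rtdr1, Cmah and Slc7a15, at 98.9% or more in every pool. At the low end, 68, 69 and 62 genes had no intron read, among them Amigo2 with 1586, 1978 and 1592 exon reads, and 1810026J23Rik, 2700089E24Rik, 8430410K20Rik and AI462493. The annotated exons of Amigo2 cover its whole span, and 2700089E24Rik has 1 exon, so neither entry could hold an intron read. For these entries a share of 0 follows from the annotation, and how many others are of this kind is not given here.

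For 13597 entries the files give no exon length, and all of their reads count as intron reads, 9.75%, 9.78% and 7.80% of the total. Malat1, a long noncoding RNA of nuclear speckles, had 37484, 42610 and 42990 reads, and Meg3, an imprinted long noncoding RNA, 11088, 13630 and 11873. The RPKM of these genes is 0 in the files and says nothing of their level. They were chosen after their values were seen.

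The pools were also compared gene by gene. Over the 13333 expressed genes, Pearson's r of log2(RPKM + 0.1) across genes was 0.984 between replicates 1 and 2, 0.988 between 1 and 3 and 0.985 between 2 and 3, and genes are not independent replicates. Estimated by edgeR from exon reads, the biological coefficient of variation was 8.18%, and without replicate 2 it was 7.03%. For the 11025 genes with a mean of at least 100 exon reads, the median coefficient of variation was 6.44%, against 3.81% from counting alone. It fell with depth, from 8.63% for the 6902 genes with 100 to 1000 reads to 3.0% for the 158 genes with at least 10000, where counting gives 0.790%.

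The highest pool exceeded the lowest by more than 1.5 times in 441 of these 11025 genes (4.0%), of which 165 were highest in replicate 1, 146 in replicate 2 and 130 in replicate 3. The 15 genes with the largest coefficient of variation were led by Crybb2 at 124%, and also held Cryaa, Hba-a1 and Lars2. Gpx3, a secreted glutathione peroxidase, had 198, 256 and 495 exon reads, highest in replicate 3, and Sat2 and Khdrbs2 had 67, 163 and 74 and 94, 167 and 64, highest in replicate 2. Gm340 had 98, 57 and 160. The other 7, Rps6-ps4, Gm10294, Moap1, Iqcj-schip1, Gm10051, Rbm12 and the histone gene Hist2h2aa2, had at most 40.8% of their exon reads uniquely mapped, so their values depend on how reads were shared between copies.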

How the data were processed

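RNA from pools of 6 retinas was sequenced by the authors, who mapped the reads with CLC Genomics Workbench to a genome they name mm9 and deposited, for each sample, counts of reads on exons and on whole genes per gene entry, not normalized, with an intact pair counted as 1. The authors also deposited RPKM values, which recomputation showed to be exon reads divided by the exon length and by the sum of reads on genes, introns included. Positions are those of the files. They overlapped the RefSeq gene of the same symbol in GRCm38 for 29867 of 29908 symbols, and the NCBIM37 gene for 2429 of 23471, so they were read as GRCm38.

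Only the 3 sham samples were used, grouped by their labels. The intron reads of a gene are its gene reads minus its exon reads. Expressed genes had a mean RPKM above 0.3. Shares are percents of a pool's exon reads, with 95% Wilson intervals. The spread was estimated with edgeR 4.0.16 (TMM normalization, intercept only) in R 4.3.3 and tested on simulated data. Alternatives were other thresholds, unique reads, summed RPKM, gene reads, other pseudocounts, Spearman's rho, DESeq2 1.42.0 size factors, leaving out leading genes and leaving out each pool. The rest used Python 3.11.15, numpy 2.4.6, pandas 2.3.3, scipy 1.17.1 and matplotlib 3.10.9. Promoters came from RefSeq. Some genes that the rules below would name are not reported here.

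The choice of samples, the gene lists (284 symbols in 25 lists, of which 5 were not found) and the rules were chosen with earlier results of these data known. Genes were named by rank: the 20 highest by RPKM, the 10 with the most exon reads, up to 5 highest and the lowest of each retinal list, up to 4 highest of other lists, the 10 with the most intron reads, the 10 highest and 5 lowest by intron share, the 15 with the largest coefficient of variation, and all genes of the axon injury response and sex-linked lists.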

Additional observations from a re-analysis of the deposited data

How the results depend on the processing

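No paired analysis was possible because only the sham group was used. The number of expressed genes kept within 1.5 times under every alternative tried, from 11710 (mean RPKM above 1) to 17017 (1 exon read in any pool). The share on the 10 leading genes changed by less than its SD except without Lars2, an alternative chosen after seeing the data, which gave 9.82%. The rod list share was 8.84% with unique exon reads, 8.95% of summed RPKM and 6.42% of gene reads, and it is not reported without its leading gene. The intron share was 21.5% with unique reads and 17.4% without the 10 entries with the most intron reads. The mean correlation between pools was 0.993 with a pseudocount of 1, 0.989 above a mean RPKM of 1 and 0.992 by Spearman's rho. Without a filter it was 0.995, but only 17017 of the 35485 entries had an exon read in any pool. The rest hold an RPKM of 0 in every pool, so that value is partly built in. Leaving out each pool in turn gave 13309 to 13346 expressed genes, 10.1 to 10.7% on the 10 leading genes, 8.28 to 8.44% on the rod list, 23.8 to 26.6% on introns, correlations of 0.984 to 0.988 and a biological coefficient of variation of 7.03 to 8.98%. Among the other 11 class lists, leaving out the leading gene moved the share by more than its SD in all 11, summed RPKM in 9 and unique reads in 7. Leaving out a pool moved none by that measure, but this outcome was fixed in advance. With so few pools, leaving 1 out cannot shift a mean by as much as the SD over the pools. The measure therefore cannot show how far any share depends on a single pool. Shares that changed by more than 1.5 times without the leading gene were those of Müller glia (0.227%), endothelium (0.0151%), mural cells (0.00318%), astrocytes (0.00247%) and horizontal cells (0.000775%). By summed RPKM they were those of cones (0.273%), endothelium (0.0190%), microglia (0.0117%) and horizontal cells (0.00109%). The entry in Septin4, added after seeing the data, gave a horizontal share of 0.0151%. Genes with few reads, such as most markers of horizontal cells, microglia and mural cells, are limited by depth.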

Other observations

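The listed transcription factors of the retina were led by factors of photoreceptors. Nrl, which sets rod identity, had the highest RPKM of 16 listed factors at 720 ± 11.8 (SD, n = 3), followed by the rod nuclear receptor Nr2e3 at 303 ± 29.0 and the photoreceptor factor Crx at 297 ± 13.2, which could not be ordered within their spread. Neurod1 followed at 141 ± 11.3, with 64.8% of its exon reads uniquely mapped. All 16 factors were expressed, at a median RPKM of 33.3, and in shares of exon reads the list was 0.630%, 0.608% and 0.625% in replicates 1, 2 and 3.

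The genes of glycolysis were slightly lower in replicate 1. The 17 glycolysis genes found held 1.87%, 1.96% and 1.89% of the exon reads, and after TMM normalization 0 of the 17 were above their own mean in replicate 1, 16 in replicate 2 and 8 in replicate 3, with a median log2 deviation of -0.04 in replicate 1 and 0.04 in replicate 2. All had a mean RPKM of at least 38.9, with Gapdh at 625 ± 30.7, although unique reads made up 9.30% of its exon reads. The immediate early list, genes that rise within minutes of a stimulus or of tissue handling, held 0.0226%, 0.0211% and 0.0200%, led by Btg2 at an RPKM of 22.4 ± 1.65, Fos at 7.81 ± 1.34, Dusp1 at 7.71 ± 0.307 and Nr4a1 at 7.13 ± 1.25. Of the 10 genes of this list with an RPKM above 0.3 and reads in every pool, 8 were above their own mean in replicate 1. In replicate 2 it was 5 and in replicate 3 it was 3. Over all 13314 expressed genes with reads in every pool, 6616, 6609 and 6559 were above their mean in replicates 1, 2 and 3. The median log2 deviation in replicate 1 was 0.03, against 0.52 for the axon injury response list. Some genes of the latter list passed the RPKM filter only through replicate 1.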
